A study of Mus musculus with 16 samples.

Results

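The genes described here are 10 immediate early genes, chosen by their mouse gene identifiers from the 54446 mouse identifiers counted in every library. They are Fos, Fosb, Jun, Junb, Jund, Egr1, Atf3, Ier2, Zfp36 and Btg2, and all 10 were found and passed the filter on low counts. Newly made RNA was captured from mouse embryonic stem cells of strain C57BL/6, with the aim of comparing transcription with and without Mettl14, whose product is the partner of METTL3 in the complex that methylates adenosines in messenger RNA. The groups were Mettl14 CKO (conditional knockout) cells and Control cells, each labelled with 0.5 mM of 5-ethynyl uridine (EU), a uridine analogue built into RNA as it is made, for 10, 20, 30 or 60 min. Each of these 8 groups had 2 libraries, 16 in all. Both genotypes were grown with serum, LIF at 1000 U/ml, 3 μM of the GSK3 inhibitor CHIR99021 and 1 μM of the MEK inhibitor PD0325901. EU was added 48 h after seeding and cells were collected with trypsin. The labels say neither how the knockout was induced, nor how many clones were used, nor whether replicate libraries are separate cultures. The p-values thus set a difference only against the scatter between these libraries, and that scatter may be technical.

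Immediate early genes are switched on within minutes of a stimulus, without new protein being made first. Growth factor signals reach many of them through MEK and ERK kinases and the serum response factor, and other signals reach them through CREB and stress kinases. Most of their products are transcription factors or regulators of messenger RNA decay, and their own transcripts are known to be short-lived. FOS and FOSB pair with JUN, JUNB or JUND to form AP-1, which binds DNA through a basic region next to a leucine zipper.

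The promoters of 4 of the members that rose in CKO cells are shown. These are the members whose promoter entries held TGACGT or TGACATCA. Junb and Zfp36, which also rose at 10 min, had entries with neither and are not shown. Fos and Atf3 had every CKO library above every Control library at 10, 20 and 60 min (1.76% of all identifiers tested did), Jun rose at 10, 20 and 60 min, and Btg2 rose at 10 min. Each sequence runs from 250 bases before to 50 bases after the gene start in RefSeq (GRCm38.p6, the build called mm10 in the submitters' processing notes). Capitals mark the cyclic AMP response element core TGACGT on either strand, the TATA box TATAAA on the gene's strand, the AP-1 type site TGACATCA on either strand and the EGR site GCGNGGGCG on either strand. Fos is on the plus strand at chr12:85473640-85473939, Atf3 on the minus strand at chr1:191183284-191183583, Jun on the minus strand at chr4:95052173-95052472 and Btg2 on the minus strand at chr1:134079106-134079405.
Fos: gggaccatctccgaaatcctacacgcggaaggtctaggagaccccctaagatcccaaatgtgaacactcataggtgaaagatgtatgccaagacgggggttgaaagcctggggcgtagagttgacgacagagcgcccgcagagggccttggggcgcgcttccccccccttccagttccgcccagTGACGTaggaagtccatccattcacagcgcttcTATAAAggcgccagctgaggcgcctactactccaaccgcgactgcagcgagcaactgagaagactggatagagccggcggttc
Atf3: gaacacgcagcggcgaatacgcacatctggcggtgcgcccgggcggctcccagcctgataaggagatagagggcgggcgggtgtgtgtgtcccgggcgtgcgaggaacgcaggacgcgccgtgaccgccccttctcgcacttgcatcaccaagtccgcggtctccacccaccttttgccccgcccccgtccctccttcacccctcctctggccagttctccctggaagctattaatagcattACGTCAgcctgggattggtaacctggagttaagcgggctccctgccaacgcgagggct
Jun: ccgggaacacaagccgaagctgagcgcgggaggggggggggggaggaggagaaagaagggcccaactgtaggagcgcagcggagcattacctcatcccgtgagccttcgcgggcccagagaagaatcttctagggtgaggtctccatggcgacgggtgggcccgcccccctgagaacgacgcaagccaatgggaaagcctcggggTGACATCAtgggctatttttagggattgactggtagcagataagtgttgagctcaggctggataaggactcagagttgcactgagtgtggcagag
Btg2: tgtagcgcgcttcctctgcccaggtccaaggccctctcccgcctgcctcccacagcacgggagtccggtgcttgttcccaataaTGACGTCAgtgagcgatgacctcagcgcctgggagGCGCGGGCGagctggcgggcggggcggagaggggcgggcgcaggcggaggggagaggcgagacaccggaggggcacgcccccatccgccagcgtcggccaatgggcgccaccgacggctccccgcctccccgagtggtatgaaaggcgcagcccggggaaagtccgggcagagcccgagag

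Of the 10 members, 8 had an entry in this promoter table, 3 of which (Fos, Atf3 and Btg2) held TGACGT, against 7.51% of the 32851 windows of 300 bases in the table. TGACATCA was found in Jun alone among the 8, and in 3.62% of all windows. GCGNGGGCG was found in 3 of the 8 (Fosb, Zfp36 and Btg2) and in 5.55% of all windows, TATAAA in 2 (Fos and Junb) and in 8.32%, and the AP-1 consensus TGANTCA in 0 of the 8 and in 7.81%. A CArG box, the serum response factor's site, was found in Zfp36 alone and in 1.63% of all windows, both strands searched. The CCAAT box, searched on both strands and not marked above, was found in 4 of the 8 (Jun, Junb, Atf3 and Btg2) and in 37.4% of all windows. Not all of these matches lay upstream of the gene start. The TATAAA of Fos began 33 bases before it, but that of Junb began at base 1 of the gene. The CCAAT match of Atf3 lay from base 6 of the gene. These 7 motifs were chosen with the sequences in view, matches describe letters in these windows only, and elements farther upstream were not searched.

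Mouse counts ranged from 11902184 to 28502750 in 14 libraries, and were 5188643 and 5109162 in the 2 CKO 30 min libraries. These 2 libraries stood apart: they detected 30583 and 31826 identifiers, against 21173 to 26857 in the other 14. Results are therefore given with all libraries and without the 4 libraries of 30 min. The identifiers are paired with no symbol in the tables used here beyond these 10 genes, so Mettl14, the markers of stem cells and of other cell types and the lists of related genes were not analysed here. In libraries of a whole culture, fewer cells making a transcript and less of it per cell cannot be told apart.

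The immediate early genes took a larger part of the captured RNA in CKO cells than in Control cells. At 10, 20 and 60 min their summed counts made up 0.0349% to 0.0778% of the mouse counts in CKO cells, against 0.0226% to 0.0474% in Control cells. At 30 min the shares were 0.0335% and 0.0344% in CKO cells, against 0.0357% and 0.0364% in Control cells. Levels below are CPM, mouse gene counts scaled to library size with TMM factors, so that changes are relative to most other transcripts.

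With all 16 libraries, 6 of the 10 genes rose over all EU times (edgeR quasi-likelihood test, Benjamini-Hochberg adjusted over all 27488 identifiers tested), where 6.77% of all identifiers were called higher. These were Fos, Atf3, Egr1, Junb, Jun and Btg2, and 0 of the 10 fell, against 4.7% of all identifiers. Without the 30 min libraries 9 of the 10 rose, with Jund, Ier2 and Zfp36 added, where 6.55% of 20204 identifiers were called higher. The median log2 fold change of the 10 was 0.87 with all libraries and 1.12 without the 30 min libraries, beside 0.19 and -0.02 over all identifiers tested. The 10 genes were chosen with earlier results of these data known, so the values over all identifiers stand beside them only as a description.

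**Figure D1:**
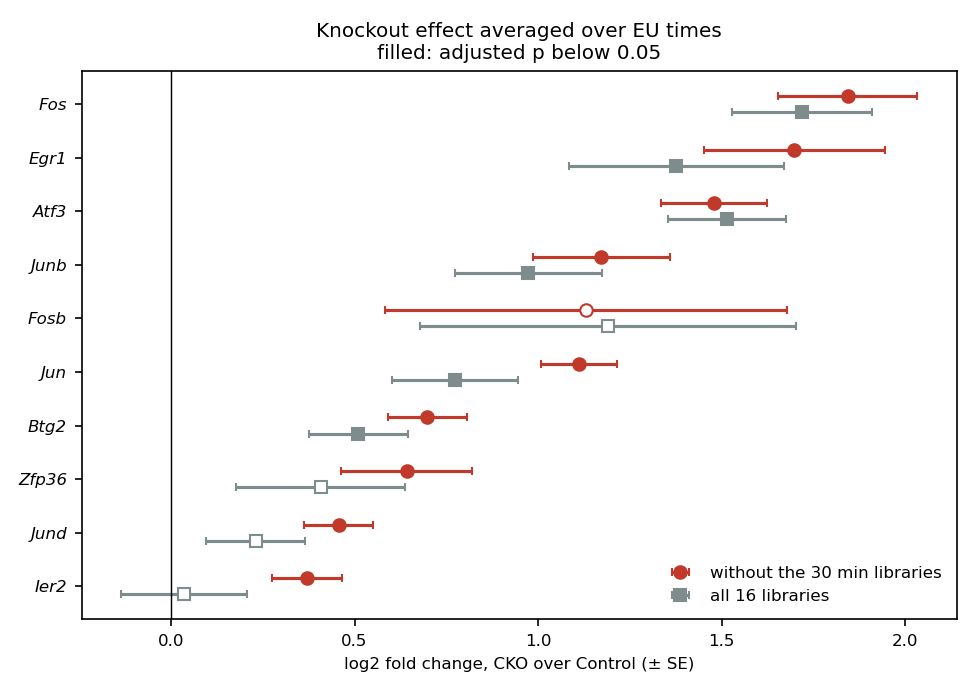
Log2 fold change of CKO over Control averaged over EU times (horizontal axis, with its standard error) for each immediate early gene, without the 30 min libraries (circles) and with all 16 libraries (squares); filled symbols passed the adjusted p threshold of 0.05. Fos lies highest, at 1.84 without the 30 min libraries, and Ier2 lowest, at 0.37.

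Fos (ENSMUSG00000021250, chr12:85473890-85477274), the FOS subunit of AP-1, had the largest log2 fold change of the 10 in both fits. In CKO cells its level was 9.23 and 9.88 CPM at 10 min, 15.9 and 11.7 at 20 min, 14.8 and 17.9 at 30 min and 22.2 and 21.4 at 60 min. In Control cells it was 2.44 and 1.40 CPM at 10 min, 4.12 and 3.35 at 20 min, 5.67 and 7.85 at 30 min and 7.66 and 7.91 at 60 min. Both CKO libraries lay above both Control libraries at every EU time, and the lowest CKO value exceeded the highest Control value. The log2 fold change was 1.72 (SE 0.19, edgeR adjusted p = 1.16e-05) with all libraries and 1.84 (SE 0.19, adjusted p = 2.61e-06) without the 30 min libraries, where the fold was 3.59.

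Fosb (ENSMUSG00000003545, chr7:19302696-19310118), which encodes the related FOSB subunit, was the least abundant of the 10. It had 9 and 3 counts in the CKO 10 min libraries, 40 and 32 at 20 min, 56 and 29 at 30 min and 65 and 82 at 60 min. In Control libraries it had 4 and 11 counts at 10 min, 1 and 12 at 20 min, 27 and 58 at 30 min and 37 and 59 at 60 min. The genotypes overlapped at 10 min, and CKO libraries had the higher CPM at the other EU times. The log2 fold change of 1.19 (SE 0.51) did not pass the threshold (edgeR adjusted p = 0.122). It passed in DESeq2 (1.27, adjusted p = 0.0221) and with ERCC spike-in scaling (1.57, edgeR adjusted p = 0.0379).

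Jun (ENSMUSG00000052684, chr4:95049036-95052222), which encodes the main partner of FOS, was higher in CKO cells at 3 of the 4 EU times. Its level in CKO cells was 34.2 and 52.2 CPM at 10 min, 80.0 and 78.4 at 20 min, 28.4 and 29.7 at 30 min and 164 and 170 at 60 min. In Control cells it was 24.4 and 22.7 CPM at 10 min, 36.0 and 38.3 at 20 min, 37.8 and 37.7 at 30 min and 62.5 and 65.8 at 60 min. CKO libraries lay above Control libraries at 10, 20 and 60 min, and below them at 30 min. The overall log2 fold change was 0.77 (SE 0.17, edgeR adjusted p = 0.00787) with all libraries and 1.11 (SE 0.10, adjusted p = 7.08e-07) without the 30 min libraries, a fold of 2.16.

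Junb (ENSMUSG00000052837, chr8:84976909-84978748), a JUN relative, had 7.85 and 17.9 CPM in CKO cells at 10 min, 15.5 and 13.4 at 20 min, 11.5 and 15.2 at 30 min and 20.0 and 20.6 at 60 min. Control cells had 4.28 and 4.07 CPM at 10 min, 6.80 and 7.04 at 20 min, 12.9 and 8.96 at 30 min and 10.7 and 10.6 at 60 min. The groups overlapped at 30 min only, and the 2 CKO libraries of 10 min lay far apart. Its overall log2 fold change was 0.97 (SE 0.20, edgeR adjusted p = 0.00443) with all libraries and 1.17 (SE 0.19, adjusted p = 0.000332) without the 30 min libraries.

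Jund (ENSMUSG00000071076, chr8:70697739-70700616), the third JUN gene, which is known for steadier expression than Jun and Junb, differed less. Its CKO level was 74.6 and 90.2 CPM at 10 min, 80.0 and 80.8 at 20 min, 53.0 and 56.1 at 30 min and 108 and 164 at 60 min. Its Control level was 56.9 and 69.5 CPM at 10 min, 54.3 and 54.2 at 20 min, 78.0 and 80.1 at 30 min and 93.6 and 103 at 60 min. As for Jun, CKO libraries were the higher at 10, 20 and 60 min and the lower at 30 min. The overall log2 fold change was 0.23 (SE 0.13, edgeR adjusted p = 0.266) with all libraries, and 0.46 (SE 0.09, adjusted p = 0.00303) without the 30 min libraries.

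Jun, Junb, Jund and Ier2 are known to have no introns, and their levels are given per kilobase of RefSeq gene span (3187, 1840, 2878 and 1522 bases). The length counted for each gene is not named in the labels and may differ from this span, so comparisons between these genes are approximate. At 60 min Ier2 had the highest level in CKO cells, 147 ± 10.5 CPM per kb (SD, n = 2), followed by Jun at 52.4 ± 1.49, Jund at 47.1 ± 13.8 and Junb at 11.1 ± 0.236. In Control cells at 60 min Ier2 stood at 110 ± 0.0177 CPM per kb (SD, n = 2), Jund at 34.1 ± 2.19, Jun at 20.1 ± 0.740 and Junb at 5.80 ± 0.0327. Jund thus lay above Jun in Control cells at 60 min, as it did at the other EU times. In CKO cells the levels of Jun and Jund at 60 min differed by less than the SD of Jund. At the other EU times Jund lay above Jun in CKO cells too. The means were 28.6 against 13.6 CPM per kb at 10 min, 27.9 against 24.9 at 20 min and 18.9 against 9.11 at 30 min.

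Atf3 (ENSMUSG00000026628, chr1:191170296-191183333) is a stress-induced member of the CREB and ATF family that can pair with JUN proteins. It was the other gene with both CKO libraries above both Control libraries at every EU time. Its CKO level was 17.2 and 21.9 CPM at 10 min, 21.1 and 19.9 at 20 min, 32.5 and 15.0 at 30 min and 44.7 and 46.9 at 60 min. Its Control level was 8.57 and 5.80 CPM at 10 min, 9.47 and 8.47 at 20 min, 9.0 and 6.75 at 30 min and 11.4 and 14.6 at 60 min. Every CKO library exceeded every Control library across all EU times, at the narrowest by 15.0 against 14.6 CPM. The overall log2 fold change was 1.52 (SE 0.16, edgeR adjusted p = 6.20e-06) with all libraries and 1.48 (SE 0.14, adjusted p = 1.65e-06) without the 30 min libraries, a fold of 2.79.

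Egr1 (ENSMUSG00000038418), a zinc finger transcription factor and a classical target of ERK signalling, had 8.28 and 4.90 CPM in CKO cells at 10 min, 6.86 and 12.3 at 20 min, 6.54 and 2.40 at 30 min and 19.9 and 21.7 at 60 min. Control cells had 4.21 and 1.80 CPM at 10 min, 2.23 and 2.69 at 20 min, 3.65 and 3.54 at 30 min and 5.77 and 4.78 at 60 min. The groups overlapped at 30 min only, and their widest separation in CPM was at 60 min. The overall log2 fold change was 1.38 (SE 0.29, edgeR adjusted p = 0.00562) with all libraries and 1.70 (SE 0.25, adjusted p = 0.000129) without the 30 min libraries, a fold of 3.24.

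Ier2 (ENSMUSG00000053560, chr8:84661331-84662852), a small nuclear protein of the immediate early response, had the highest level of the 4 intronless genes and the smallest overall change of the 10. In CKO cells it had 114 and 157 CPM at 10 min, 134 and 119 at 20 min, 59.7 and 65.8 at 30 min and 235 and 213 at 60 min. In Control cells it had 105 and 76.3 CPM at 10 min, 120 and 107 at 20 min, 136 and 133 at 30 min and 167 and 167 at 60 min. CKO libraries were higher at 10 and 60 min, overlapped Control libraries at 20 min and were lower at 30 min. The log2 fold change was 0.04 (SE 0.17, edgeR adjusted p = 0.919) with all libraries and 0.37 (SE 0.10, adjusted p = 0.0141) without the 30 min libraries. Leaving out single libraries of 10, 20 or 60 min turned the first value slightly negative in 7 of 16 fits, the lowest being -0.07.

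Zfp36 (ENSMUSG00000044786, chr7:28376784-28379228) encodes tristetraprolin, which binds AU-rich elements and promotes decay of the messenger RNAs that carry them. Its CKO level was 27.9 and 13.7 CPM at 10 min, 16.9 and 19.1 at 20 min, 5.10 and 19.0 at 30 min and 24.8 and 28.4 at 60 min. Its Control level was 9.38 and 7.87 CPM at 10 min, 16.1 and 15.1 at 20 min, 14.6 and 17.5 at 30 min and 18.3 and 18.3 at 60 min. CKO libraries were higher at 10, 20 and 60 min, by little at 20 min, and the CKO replicates of 10 and 30 min lay far apart. The log2 fold change was 0.41 (SE 0.23, edgeR adjusted p = 0.247) with all libraries and 0.64 (SE 0.18, adjusted p = 0.0216) without the 30 min libraries. Without the first CKO 30 min library alone it was 0.57 (edgeR adjusted p = 0.0209).

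Btg2 (ENSMUSG00000020423, chr1:134074865-134079155), an antiproliferative p53 target whose product binds the CCR4-NOT deadenylase, had 64.7 and 91.8 CPM in CKO cells at 10 min, 88.2 and 85.5 at 20 min, 56.9 and 55.3 at 30 min and 120 and 162 at 60 min. Control cells had 38.1 and 34.2 CPM at 10 min, 59.8 and 55.7 at 20 min, 57.1 and 66.3 at 30 min and 100.0 and 104 at 60 min. CKO libraries were higher at 10, 20 and 60 min and lower at 30 min. The log2 fold change was 0.51 (SE 0.14, edgeR adjusted p = 0.0211) with all libraries and 0.70 (SE 0.11, adjusted p = 0.000236) without the 30 min libraries. Leaving out the second Control 10 min library alone gave 0.43 (edgeR adjusted p = 0.0579).

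**Figure D2:**
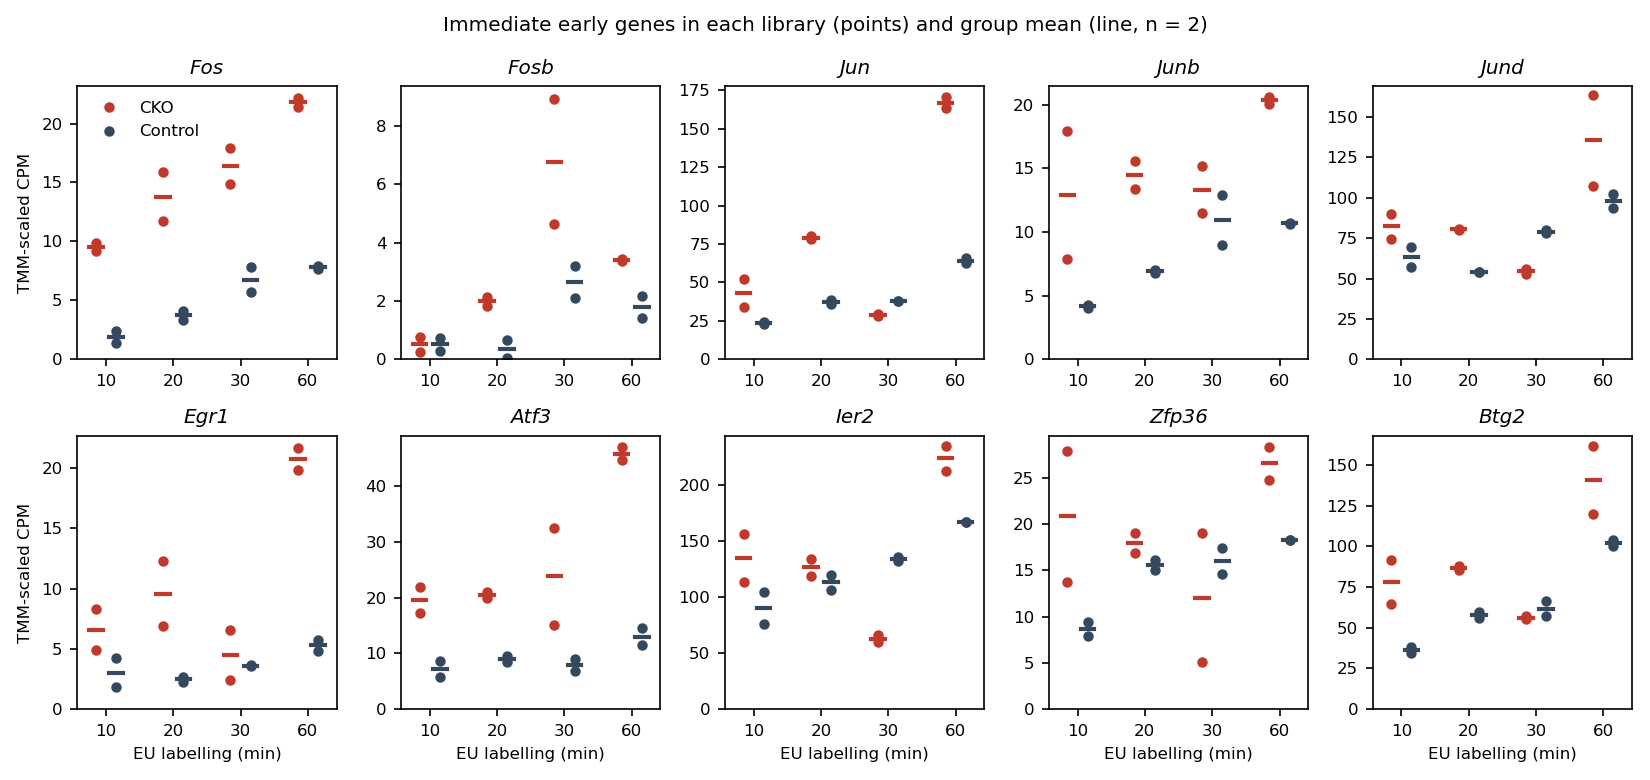
TMM-scaled CPM (vertical axes, each from 0) of the 10 immediate early genes in every library (points) with group means of 2 libraries (lines), by minutes of EU labelling. Fos and Atf3 show CKO points above Control points at all 4 EU times; at 30 min Jun, Jund, Ier2 and Btg2 show them below.

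Taken by EU time, 9 of the 10 genes had both CKO libraries above both Control libraries at 10 min, where 19.4% of all identifiers did. At 20 min 9 did, beside 21.1% of all identifiers, and at 60 min all 10 did, beside 23.3%. For 8 of the 10 this held at 10, 20 and 60 min together, where 4.81% of all identifiers did, Fosb and Ier2 being the exceptions. At 30 min 3 genes lay above (Fos, Fosb and Atf3), where 41.9% of all identifiers did, and 4 lay below (Jun, Jund, Ier2 and Btg2), where 28.9% did.

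At 10 min 7 genes rose in CKO cells (edgeR, Benjamini-Hochberg), where 6.45% of all identifiers were called higher. The log2 fold changes were 2.32 for Fos (SE 0.37), 1.63 for Junb (SE 0.35), 1.45 for Atf3 (SE 0.30), 1.27 for Zfp36 (SE 0.37), 1.12 for Btg2 (SE 0.15), 0.87 for Jun (SE 0.16) and 0.58 for Ier2 (SE 0.14). Egr1 at 1.13 (edgeR adjusted p = 0.14) and Jund at 0.38 (adjusted p = 0.107) did not pass, nor did Fosb at -0.04, which was 1.19 with ERCC scaling. The Junb call was lost without the second CKO 10 min library (0.89, edgeR adjusted p = 0.168). The Zfp36 call was lost without the first CKO (0.64, adjusted p = 0.448), the first Control (1.38, adjusted p = 0.132) or the second Control 10 min library (1.15, adjusted p = 0.236). That of Ier2 was lost without the second CKO (0.31, edgeR adjusted p = 0.240) or the second Control 10 min library (0.37, adjusted p = 0.171).

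At 20 min 4 genes rose, where 0.706% of all identifiers were called higher. They were Egr1 at 1.95 (SE 0.48, edgeR adjusted p = 0.0468), Fos at 1.88 (SE 0.34, adjusted p = 0.00258), Atf3 at 1.19 (SE 0.29, adjusted p = 0.0419) and Jun at 1.09 (SE 0.15, adjusted p = 8.85e-05). Fosb had the largest value, 2.45 (SE 0.93), on 1 to 40 counts a library, and did not pass (edgeR adjusted p = 0.450). Junb at 1.06 (edgeR adjusted p = 0.209), Btg2 at 0.59 (0.0547), Jund at 0.57 (0.0741), Zfp36 at 0.21 and Ier2 at 0.16 did not pass either. The count of called genes rose or fell in fits that left out a single library. The shares of all identifiers called in those fits are not given here. Of the 4 calls at 20 min, that of Jun held in all 16 fits that left out a library. The Atf3 call was lost without any of the 4 libraries of 20 min (edgeR adjusted p = 0.104 to 0.381). The Fos call was lost without the first CKO (1.64, edgeR adjusted p = 0.120) or the second Control 20 min library (1.74, adjusted p = 0.145). The Egr1 call was lost without the second CKO 20 min library (1.48, edgeR adjusted p = 0.908), either Control 20 min library (adjusted p = 0.575 without the first, 0.290 without the second) or either CKO 60 min library (0.0564 and 0.0603).

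At 60 min the same 4 genes rose, where 1.79% of all identifiers were called higher. Egr1 stood at 1.98 (SE 0.47, edgeR adjusted p = 0.0175), Atf3 at 1.82 (SE 0.29, adjusted p = 0.000353), Fos at 1.48 (SE 0.33, adjusted p = 0.00965) and Jun at 1.38 (SE 0.15, adjusted p = 2.04e-06). The other 6 genes had log2 fold changes of 0.42 to 0.93, which did not pass. Here too the count of called genes rose or fell in fits that left out a single library, for which the shares of all identifiers are not given. With a library left out, Jund ran from 0.078 to 0.71 and Btg2 from 0.18 to 0.63, both lowest without the second CKO 60 min library. The calls of Jun and Atf3 held in all 16 fits that left out a library. Those of Fos and Egr1 were lost without any of the 4 libraries of 60 min, with edgeR adjusted p of 0.0515 to 0.288 for Fos and 0.085 to 0.298 for Egr1.

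At 30 min the picture differed, in the CKO libraries that stood apart. Atf3 rose by 1.60 on the log2 scale (SE 0.30, edgeR adjusted p = 0.000182) and Fos by 1.27 (SE 0.34, adjusted p = 0.00447), where 29.4% of all identifiers were called higher. Ier2 fell by 1.10 (SE 0.14, edgeR adjusted p = 1.27e-06) and Jund fell by 0.54 (SE 0.16, adjusted p = 0.00816), where 19.1% were called lower. The median over all identifiers at this time was 0.61, and 3 of the 10 genes lay above it. Atf3 had far apart CKO libraries, and its value was 0.95 without the first and 2.11 without the second of them, its call being kept in both. The Fos call was lost without the first Control 30 min library (1.11, edgeR adjusted p = 0.0853) and the Jund call without the second (-0.47, adjusted p = 0.0633). Egr1, which did not pass, stood at 0.31 with all libraries and at -0.57 without the first CKO 30 min library, and Zfp36 stood at -0.41 and, without that library, at 0.25. Ier2 kept its call under every scaling and filter tried, while the Jund call was lost with DESeq2 (-0.26, adjusted p = 0.222), ERCC scaling (-0.62, edgeR adjusted p = 0.0577) and 3 other settings. The part of the quality of these libraries in the values was not tested.

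**Figure D3:**
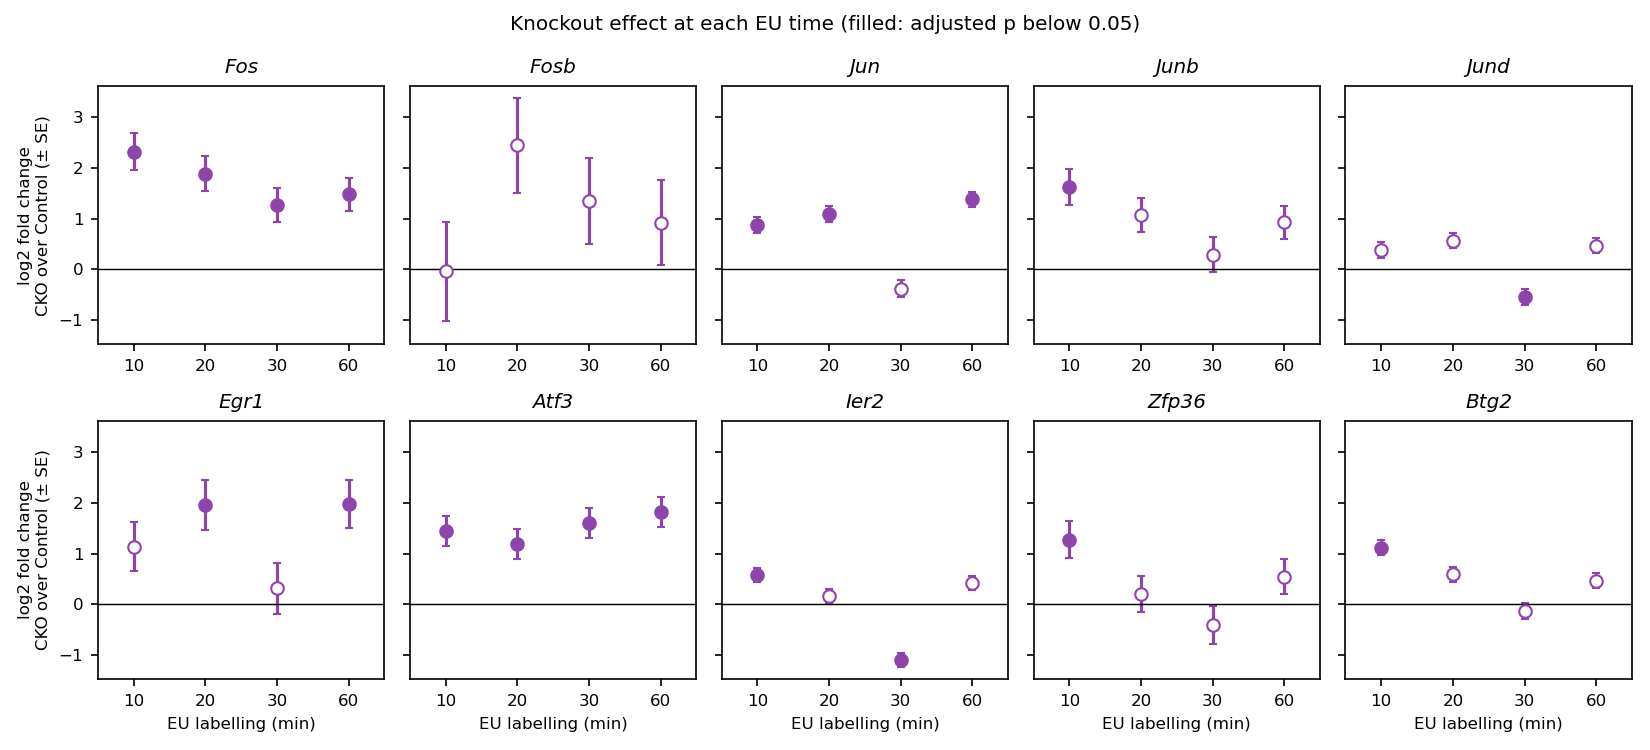
Log2 fold change of CKO over Control with its standard error (vertical axis) at each EU time for the 10 genes, from the fit to all 16 libraries; filled symbols passed the adjusted p threshold of 0.05. Jun, Jund, Ier2, Zfp36 and Btg2 lie below 0 at 30 min and above 0 at the other EU times, while Fos and Atf3 lie above 0 at all 4; Btg2 at 30 min turned positive (0.14) with library totals or DESeq2 size factors.

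Without the 30 min libraries the same numbers of genes were called higher at 10, 20 and 60 min, 7, 4 and 4, where 10.9%, 1.24% and 3.04% of all identifiers were (edgeR).

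The genotype difference varied with EU time for 4 of the 10 genes when all libraries were used (edgeR F-test with 3 degrees of freedom), where 22.7% of all identifiers were called. These were Ier2 (adjusted p = 1.76e-06), Jun (6.00e-06), Btg2 (0.000985) and Jund (0.00108). Without the 30 min libraries 0 of the 10 were called (edgeR), where 5.58% of all identifiers were, and 2 of the 10, Btg2 and Zfp36, had an unadjusted p under 0.05.

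The immediate early genes also gained share of the captured RNA with longer labelling. From 10 to 60 min 8 of the 10 rose in CKO cells, where 8.96% of all identifiers were called higher, and 6 of the 10 rose in Control cells, where 6.88% were (edgeR, Benjamini-Hochberg). In CKO cells the log2 fold changes of 60 over 10 min ran from 0.35 for Zfp36 to 2.74 for Fosb, with a median of 1.02. The Zfp36 value turned to -0.072 without the second CKO 10 min library. In Control cells they ran from 0.63 for Jund to 2.02 for Fos, with a median of 1.22. The median over all identifiers was 0 in both genotypes, and none of the 10 genes fell, where 6.24% of all identifiers were called lower in CKO cells and 3.21% in Control cells. Without the 30 min libraries 8 of the 10 were called in each genotype, with 14.7% of all identifiers called higher in CKO cells and 10.6% in Control cells.

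Jun gained 1.95 in CKO cells (SE 0.15, edgeR adjusted p = 6.98e-10) and 1.44 in Control cells (SE 0.15, adjusted p = 2.33e-07). Btg2 gained 0.85 in CKO cells (SE 0.15, edgeR adjusted p = 0.000139) and 1.50 in Control cells (SE 0.15, adjusted p = 1.21e-07). For both genes these calls held in all 16 fits that left out a library, as did those of Ier2 in both genotypes, Atf3 in CKO cells and Fos in Control cells. Single libraries ended the others, and the shares of all identifiers called in those fits are not given here. In CKO cells, the Fos call (1.19) was lost without the first 10 min or either 60 min CKO library (edgeR adjusted p = 0.0704, 0.0983 and 0.0933), and the Egr1 call (1.66) without the second 10 min or either 60 min CKO library (0.146, 0.0584 and 0.114). The Jund call in CKO cells (0.72) was lost without the second CKO 60 min library (0.37, edgeR adjusted p = 0.151). The Fosb call, which rests on 9 and 3 counts at 10 min, was lost in 12 of 16 such fits (edgeR adjusted p of up to 0.298). In Control cells the Junb call (1.35) was lost without the second Control 10 min or first Control 60 min library (edgeR adjusted p = 0.0668 and 0.0507), and the Jund call (0.63) without the first Control 10 min library (0.0878).

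Set against the ERCC spike-in RNA, counts of all 10 genes were higher at 60 than at 10 min in both genotypes. For every gene but Fosb the genotypes lay farthest apart, as a ratio of means, at 10 min. So did the mouse counts as a whole. Per ERCC count these were 28.6 and 34.3 in CKO cells at 10 min, against 11.6 and 12.3 in Control cells. At 60 min they were 128 and 155 in CKO cells, against 133 and 131 in Control cells. Because 0.01 µl of spike-in per sample was added after capture, these values carry cell number, RNA recovery and capture yield along with the amount of labelled RNA. Fos had 2.57 and 3.21 counts per 10000 ERCC counts in CKO cells at 10 min, against 0.286 and 0.173 in Control cells. At 60 min it had 26.3 and 30.3 in CKO cells, against 9.73 and 9.89 in Control cells. The growth of the group mean from 10 to 60 min was 9.79-fold in CKO cells and 42.7-fold in Control cells, where the mouse counts as a whole grew 4.49-fold in CKO cells and 11.1-fold in Control cells.

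Jun had 9.53 and 17.0 counts per 10000 ERCC counts in CKO cells at 10 min, against 2.87 and 2.81 in Control cells. At 60 min it had 195 and 241 in CKO cells, against 79.3 and 82.2 in Control cells. It grew 16.4-fold in CKO cells and 28.4-fold in Control cells, again above the growth of the mouse counts as a whole in each genotype. Across the 10 genes, growth of the mean in CKO cells was 5.68-fold (Zfp36) to 30.1-fold (Fosb). In Control cells it was 16.2-fold (Jund) to 42.7-fold (Fos). Zfp36 in CKO cells ran from 4.47-fold to 7.79-fold with a library left out, beside 4.49-fold for the mouse counts as a whole. Fosb, on 3 to 11 counts at 10 min, grew 56.6-fold in CKO cells without their first 10 min library and 65.3-fold in Control cells without their second. Junb grew 6.62-fold in CKO cells and 12.1-fold without their second 10 min library, and Egr1 grew 18.5-fold in Control cells and 29.9-fold without their first 10 min library. With ERCC scaling 9 of the 10 genes were called higher in CKO cells at 10 min (edgeR, Benjamini-Hochberg), 4 at 20 min and 2 at 60 min (Jun and Atf3), while the median over all identifiers moved to 1.14, 0.36 and 0. The shares of all identifiers called higher with this scaling are not given here, so these counts cannot be set against them. At each of these EU times all 10 genes lay above that median.

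**Figure D4:**
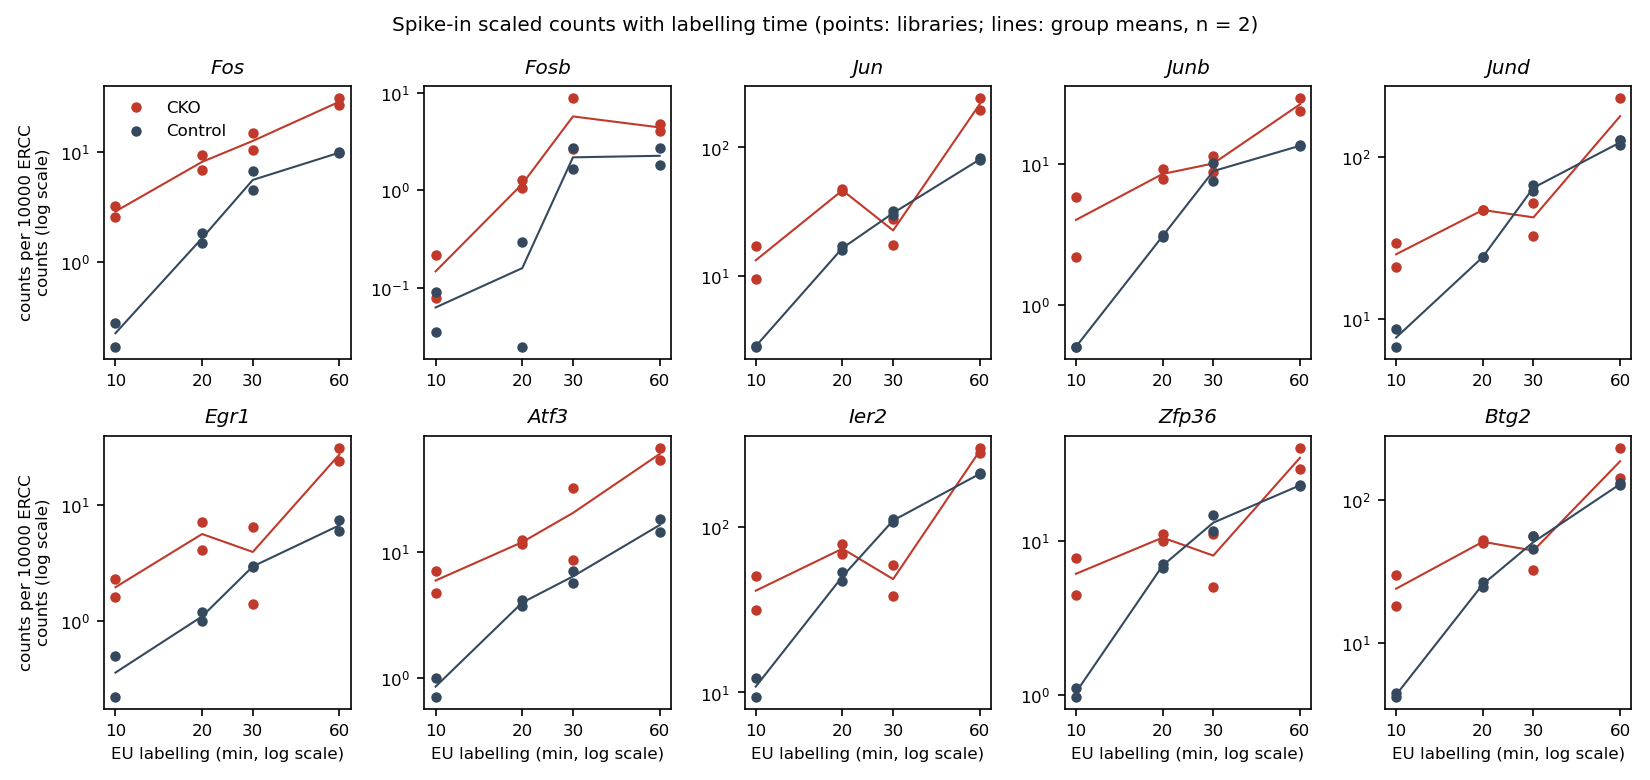
Counts per 10000 ERCC counts (vertical axes, log scale) of the 10 genes against minutes of EU labelling (horizontal axes, log scale), with points for libraries and lines through group means of 2 libraries. For every gene but Fosb both CKO points lie above both Control points at 10 min, and for Fos and Atf3 they do so at all 4 EU times.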

How the data were processed

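RNA captured after EU labelling was measured in 16 libraries, 2 for each of 2 genotypes and 4 EU times. The authors deposited raw counts for each gene identifier, made with CASAVA, Trimmomatic 0.38, HISAT2 2.1.0 and HTSeq on mm10, per the submitters' processing notes. No label or header names the annotation, strand setting or counted feature, and the RNA is labelled total in one field and polyA in another. Mouse counts (54446 identifiers) and 92 ERCC species were separated, ERCC taking 0.643% to 7.97% of a library's counts.

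Counts were tested in R 4.3.3 with edgeR 4.0.16 (TMM, filterByExpr over 8 groups, robust quasi-likelihood test, Benjamini-Hochberg adjustment over 27488 identifiers, threshold 0.05). The overall effect used EU time plus genotype, and the other comparisons used group means of all 16 libraries. Alternatives were DESeq2 1.42.0, its size factors, library totals, ERCC scaling, 2 other filters, a replicate block, subsets of libraries and each library left out. The fits were tested on simulated data. Replicates differed by more than sampling noise (chi-square per degree of freedom 3.59 to 23.5). The genes named are all 10 members, and the members, lists and motifs were chosen with earlier results of these data known. The lists of related genes could not be applied, since no table used here pairs the other identifiers with symbols. Promoters came from RefSeq (GRCm38.p6).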

Additional observations from a re-analysis of the deposited data

Results flagged for a closer look

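For 4 of the 10 genes the difference between CKO and Control cells varied with EU time (edgeR F-test over all 16 libraries, Benjamini-Hochberg), where 22.7% of all identifiers were called. The adjusted p was 6.00e-06 for Jun, 0.00108 for Jund, 1.76e-06 for Ier2 and 0.000985 for Btg2. All 4 had CKO libraries below Control libraries at 30 min, in the CKO libraries with the fewest counts, and above or overlapping them at the other EU times. Without the 30 min libraries the edgeR adjusted p was 0.261 for Jun, 0.835 for Jund, 0.478 for Ier2 and 0.169 for Btg2.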

How the results depend on the processing

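Over all EU times, Fos, Jun, Junb, Egr1 and Atf3 kept their direction and call in all 24 alternatives, with log2 fold changes of 1.60 to 2.11, 0.69 to 1.21, 0.79 to 1.38, 1.22 to 1.84 and 1.38 to 1.97. Of 1709 values of single genes under 25 alternatives, 1527 kept direction and side of the threshold, 100 newly passed it, 63 no longer passed and 19 changed sign. Fits to only the 4 libraries of a comparison called 4 genes at 10 min, 8 at 20 min and 7 at 60 min. DESeq2 called 7 at 20 min. ERCC scaling called 2 at 60 min, 7 for variation with EU time and 10 for 60 over 10 min in Control cells, and without the 30 min libraries 0 genes varied with EU time. Leaving out each library gave 5 to 7 called genes over all EU times, 5 to 9 at 10 min, 1 to 7 at 20 min, 3 to 5 at 30 min, 2 to 8 at 60 min and 4 to 6 for variation with EU time. For 60 over 10 min it gave 4 to 8 in CKO cells and 5 to 8 in Control cells. Apart from the fit without the 30 min libraries, the shares of all identifiers called in these alternatives are not given here. The counts therefore show only how far the calls of the 10 genes moved. With ERCC scaling the median log2 fold change over all identifiers for 60 over 10 min in Control cells was 3.25. Fosb at 10 min (-0.04) turned to 1.19 with ERCC scaling and 0.040 with the replicate block, and ran from -1.11 to 0.76 with a library left out. Btg2 at 30 min (-0.14) turned to 0.14 with DESeq2, with its size factors and with library totals and to 0.18 with the stricter filter, and ran from -0.19 to 0.022 with a library left out. Such fits also gave -0.57 to 0.92 for Egr1 at 30 min, -1.60 to 0.25 for Zfp36 at 30 min, -0.067 to 0.15 for Ier2 over all EU times and -0.072 to 0.96 for Zfp36 at 60 over 10 min in CKO cells. The causes were not tested. Differences between first and second replicates were not correlated between groups (28 group pairs, r from -0.06 to 0.03). This cannot show whether libraries of equal replicate number were handled together, which the labels do not say. The replicate block called 7 genes at 60 min and moved no other count by over 1.5 times. Depth limits Fosb most, with 1 to 12 counts in each 10 min library and in the Control 20 min libraries.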

Other observations

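Outside the 10 genes, 2 identifiers had the profile across the 6 groups of 10, 20 and 60 min most like the median profile of the immediate early genes, among 13292 compared. The measure was the root mean square difference of log2 levels, each gene centred on its own mean. ENSMUSG00000045294.11 differed by 0.107 and ENSMUSG00000024190.6 by 0.115, while the 10 genes themselves differed from their median profile by 0.157 (Junb) to 0.919 (Fosb). In the same libraries their log2 fold changes of CKO over Control were 1.18 for ENSMUSG00000045294.11 and 0.91 for ENSMUSG00000024190.6. These values follow from the choice by profile, which is itself higher in CKO cells, and are given as a description with no test. They are unnamed here.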
